A study of Mus musculus with 16 samples.

Results

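The genes described here are 49 regulators and effectors of the cell cycle, taken as a fixed list from the 51912 genes counted in lung group 2 innate lymphoid cells (ILC2s). The list holds 9 genes of cell cycle entry and the G1 to S transition, 2 inhibitors of cyclin-dependent kinases (CDKs), 15 genes of S phase, and 23 genes of G2 and mitosis. All 49 genes were found in the count table, 43 of them passed the filter on low counts and were tested, and 6 (*E2f1*, *Aurkb*, *Plk1*, *Bub1*, *Cenpf*, and *Kif11*) were too low to be tested. The members were matched by gene symbol, and the rule itself used no measured value.

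The ILC2s came from the lungs of WT mice or of *Pac1*-/- mice, which lack the phosphatase PAC1, encoded by *Dusp2*. They were primary cells of mice of 6 to 8 weeks on a C57BL/6J background, treated for 4 hours, after which about 500 ILC2s were sorted for each library. The general culture protocol of the study expands sorted lung ILC2s with IL-2 and IL-7 before stimulation, and whether the cells of these libraries were expanded is not stated, so their state of cycling before the 4 hours is unknown. Every group received IL-7, the basal survival cytokine, so that no group was without cytokine. The 4 treatments were IL-7 alone, IL-7 with the alarmin IL-33, IL-7 and IL-33 with the neuropeptide CGRP, and IL-7 and IL-33 with the neuropeptide NMU, and they are called IL-7, IL-33, CGRP, and NMU below. Crossing 2 genotypes with 4 treatments gave 8 groups of 2 libraries, or 16 libraries. The labels do not say whether the 2 libraries of a group came from separate animals or cultures, so the *P* values measure the spread between these libraries, which may be technical.

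A resting cell enters the cycle when D-type cyclins activate CDK4 and CDK6, the retinoblastoma proteins release E2F factors, and genes of DNA replication are switched on, followed by the cyclin B and CDK1 program of mitosis. CDK inhibitors such as p21, encoded by *Cdkn1a*, hold the kinases back. Mature ILC2s of the resting lung are mostly quiescent and divide after alarmin stimulation, with IL-33 driving expansion and CGRP known as a restraint on it.

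Total counts ran from 6764992 to 15963357 across the libraries. Levels are given as CPM, read counts scaled to the library total after TMM adjustment. A floor of 3 counts was taken for detection, which equals 0.171 to 0.461 CPM. Reads carried no described molecular tags, and the floor therefore covers counting error only. The 14 ILC2 markers summed to 17736 to 41604 CPM, and *Gata3*, the ILC2 lineage factor gene, was at 495 to 1118 CPM and *Il1rl1*, the IL-33 receptor gene, at 516 to 1302 CPM. *Dusp2* had 0 counts in 8 of 8 *Pac1*-/- libraries but also in 6 of 8 WT libraries, with 57 counts in WT IL-7 replicate 2 and 29 in WT NMU replicate 1, so that its level cannot check the genotype labels. Markers of other cells moved with some groups. The 5 B or plasma cell markers summed to 270 to 281 CPM in the *Pac1*-/- CGRP libraries, against 35.4 to 78.0 CPM in WT CGRP and 0 to 42.2 CPM in the other groups. The 6 epithelial markers summed to 173 to 308 CPM in WT NMU, against 11.2 to 83.3 CPM elsewhere, and the 6 NK cell or ILC1 markers to 118 to 239 CPM with IL-7, against 0 to 5.29 CPM elsewhere. *Gzma* carried most of the latter sum, at 112 to 222 CPM with IL-7. *Tbx21* was at 0 in all 16 libraries, and *Ncr1*, *Eomes*, and *Prf1* reached at most 2.70, 2.66, and 5.92 CPM. The 5 macrophage markers summed to 28.8 to 112 CPM in WT NMU, against at most 3.36 CPM elsewhere. *Lyz2* carried that sum, at 112 and 27.9 CPM in WT NMU, where *Csf1r*, *Mrc1*, and *Marco* were at 0. The 9 T cell markers summed to 1016 to 1070 CPM with IL-7, 360 to 766 CPM with IL-33, 614 to 707 CPM with CGRP, and 520 to 1163 CPM with NMU. Most of it came from *Trbc2* (167 to 720 CPM), *Trbc1* (157 to 324 CPM), and *Cd3g* (29.8 to 255 CPM). *Cd8a* was at 0 in 16 libraries and *Cd4* in 15. The 5 mast cell or basophil markers summed to 315 to 333 CPM in WT CGRP and to 111 to 254 CPM elsewhere. *Kit* (63.1 to 201 CPM) and *Cpa3* (26.3 to 174 CPM) made up most of it, while *Mcpt8* and *Mcpt4* were at 0 in 15 libraries. Where few genes of a list carry the sum, the sum does not identify a cell type. The part of these transcripts in the results was not tested. In bulk samples, fewer cells of a type and less RNA per cell cannot be told apart.

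The more abundant of the 49 genes after 4 hours of treatment were genes of entry, inhibition, and replication. Ordered by the median TPM over the 16 libraries, a level per length of the gene's exons, the leading genes were *Pcna*, the sliding clamp of the replication fork, at 216 TPM, *Cdkn1a* at 108 TPM, and *Ccnd2*, encoding cyclin D2, at 72.8 TPM. *Cdk4* followed at 29.2 TPM and *Myc*, a transcription factor of growth and cycle entry, at 24.8 TPM. The ranges of *Pcna* (134 to 292 TPM) and *Cdkn1a* (49.8 to 232 TPM) overlapped, as did those of *Cdk4* (11.2 to 117 TPM) and *Myc* (7.67 to 50.1 TPM). The G2/M genes stood at the other end. The median TPM was 0 in 12 of the 23, and only *Cenpa*, the centromeric histone, exceeded 3 counts in all 16 libraries, with a median of 5.17 TPM. For comparison, 6 of the 15 S phase genes, 5 of the 9 entry and G1 genes, and both CDK inhibitors exceeded 3 counts in every library.

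**Figure D1:**
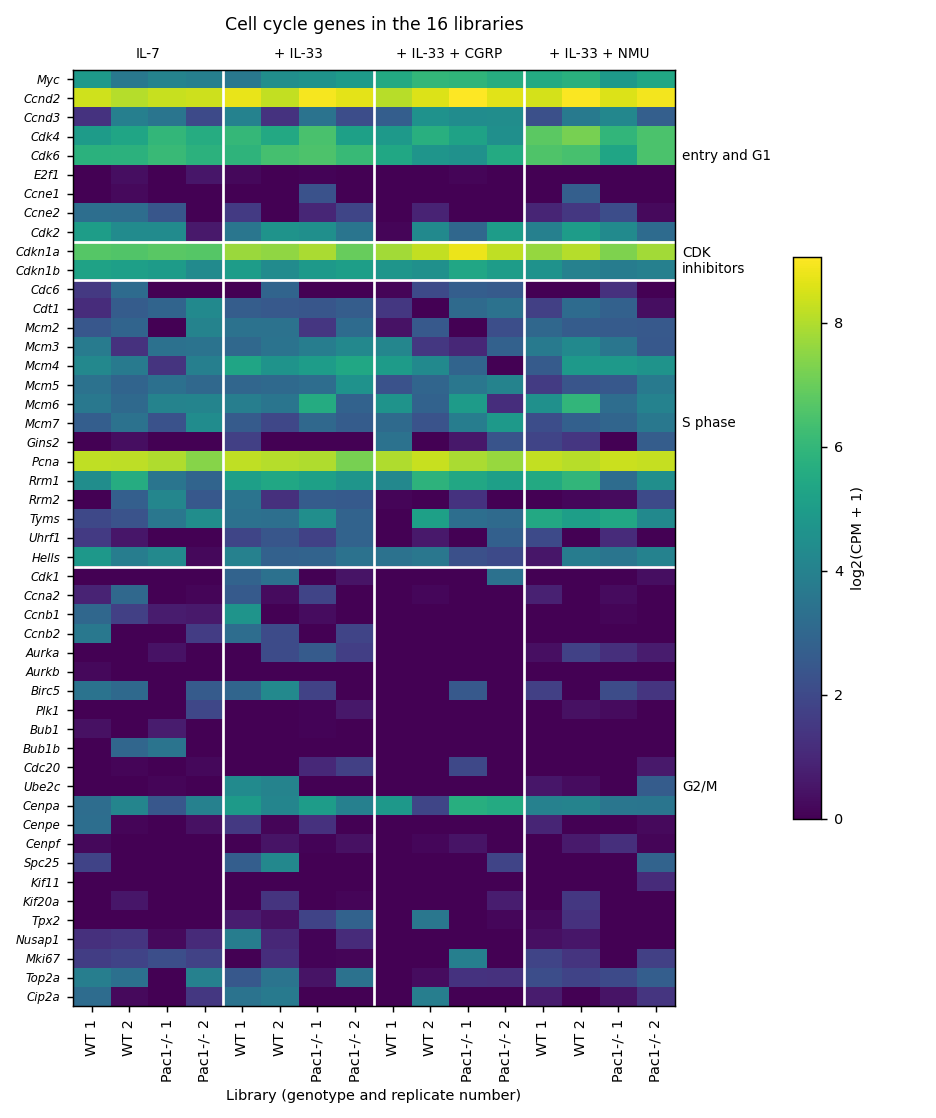
Level of each of the 49 genes (rows, grouped by phase) in each of the 16 libraries (columns, grouped by treatment), as log2(CPM + 1) on the color scale. *Ccnd2*, *Cdkn1a*, and *Pcna* are bright in all libraries, and most G2/M rows are dark in most libraries.

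The treatments were compared across both genotypes with edgeR's quasi-likelihood test, adjusted by Benjamini-Hochberg over all 14979 genes tested, and a gene was called changed at an adjusted *P* under 0.05 with a fold change above 1.5. CGRP against IL-7 called 2 of the 43 tested cell cycle genes, *Cdkn1a* and *Myc*, both higher with CGRP, where 2.64% of all tested genes were called. CGRP against NMU called 1, *Cdk4*, lower with CGRP, where 5.47% of all genes were called. Against 43 tested genes, neither count stands apart from its background share. No member was called by edgeR in the other 4 comparisons. For IL-33 against IL-7 (0.0334% of all genes called), 6 members had an unadjusted *P* under 0.05, and DESeq2 called 1. For CGRP against IL-33 (2.76% called), these numbers were 11 and 5 (*Myc*, *Cdk6*, *Cdkn1a*, *Nusap1*, and *Top2a*). For NMU against IL-33 (0.187% called), they were 6 and 0, and for NMU against IL-7 (0.734% called) 13 and 3. An unadjusted *P* under 0.05 was reached by 9.88%, 16.7%, 6.5%, and 11.8% of all genes in the same 4 comparisons. The percentages called are those of edgeR. In the same order, DESeq2 called 299, 1290, 216, and 648 of the 14979 genes, against 5, 413, 28, and 110 in edgeR. Its member counts are thus not to be set against the edgeR percentages.

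As a list, the members were more often lower than higher with CGRP against IL-33. In group means, with any level under the floor set to the floor, 29 of the 42 members above it in at least 1 group were lower with CGRP (median log2 ratio -0.55), while 50.1% of all tested genes were lower. With NMU against IL-33, 24 of 43 were lower, or 55.8%, close to the 53.9% of all tested genes. This share differed by phase. With NMU, 15 of 18 G2/M members were lower than with IL-33 (median -1.89), and 8 of 8 entry and G1 members were higher. With CGRP, 14 of 17 G2/M members (median -2.53) and 6 of 8 entry and G1 members were lower than with IL-33. Of the 15 S phase members, 8 were lower with NMU and 9 with CGRP. With IL-33, 29 of 44 members of the whole list were higher than with IL-7 (median 0.36, against a median of 0.04 over all tested genes). A gene above the floor in 1 group only differs by construction, so these counts are descriptions and support nothing by themselves. They carry no test, and the IL-33 libraries are shared by all 3.

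*Cdkn1a*, encoding the CDK inhibitor p21, rose with CGRP against IL-7. Its level was 101, 96.6, 106, and 102 CPM in the 4 IL-7 libraries (WT replicates 1 and 2, then *Pac1*-/- replicates 1 and 2). It was 206, 186, 239, and 123 CPM with IL-33, 223, 296, 448, and 290 CPM with CGRP, and 197, 262, 157, and 223 CPM with NMU, in the same order. All 12 libraries with IL-33, alone or with a neuropeptide, were above the 4 with IL-7, and the IL-33, CGRP, and NMU libraries overlapped one another. CGRP against IL-7 gave a log2 fold change of 1.61 (SE 0.246, adjusted *P* = 0.00366, edgeR), and this call held when each of the 16 libraries was left out in turn, with log2 fold changes of 1.44 to 1.74. Within WT it was 1.39 (SE 0.347, adjusted *P* = 0.148) and within *Pac1*-/- 1.82 (SE 0.351, adjusted *P* = 0.0259). With IL-33 against IL-7 the log2 fold change was 0.89 (SE 0.242, adjusted *P* = 0.337), with NMU against IL-7 1.04 (SE 0.243, adjusted *P* = 0.0765), and with CGRP against IL-33 0.72 (SE 0.242, adjusted *P* = 0.15). DESeq2 called all 3 of these, at adjusted *P* = 0.0242, 0.00194, and 0.0244. The other inhibitor, *Cdkn1b*, encoding p27, was called in no comparison.

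*Cdkn1b* was at 36.4, 33.7, 30.1, and 19.1 CPM with IL-7, at 31.4, 19.9, 28.3, and 32.6 CPM with IL-33, and at 25.4, 22.5, 39.9, and 31.0 CPM with CGRP. With NMU it was at 23.8, 14.9, 12.9, and 14.6 CPM. The NMU libraries were the lowest group, overlapping the others at WT replicate 1. NMU against IL-7 gave a log2 fold change of -0.85 (SE 0.370, adjusted *P* = 0.399) and CGRP against NMU 0.84 (SE 0.371, adjusted *P* = 0.231), neither past the threshold in edgeR.

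**Figure D2:**
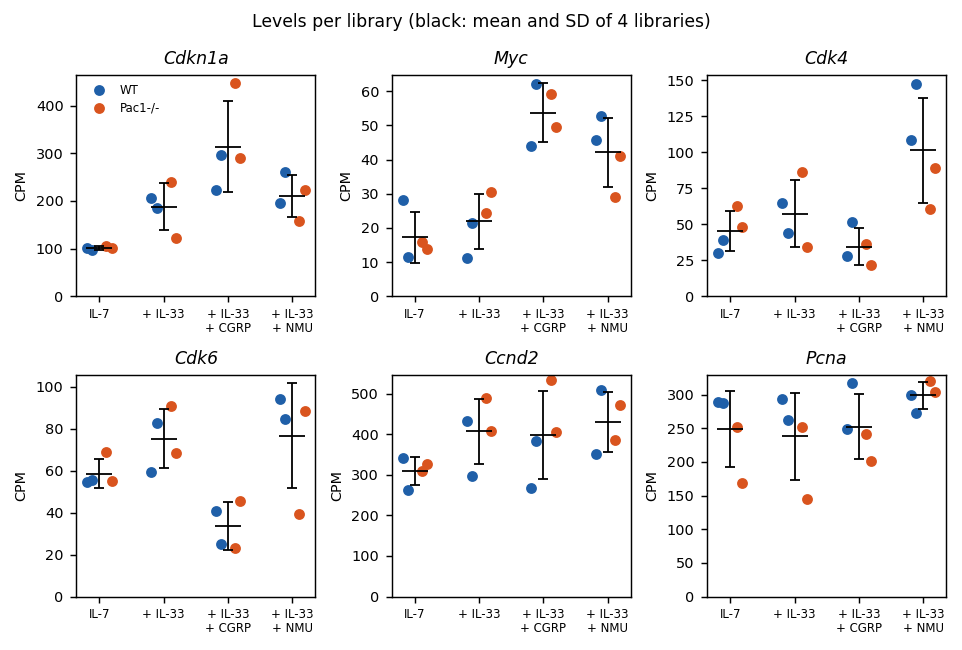
CPM of 6 cell cycle genes in each library (points, WT in blue and *Pac1*-/- in orange) by treatment, with the mean and SD of the 4 libraries of a treatment in black. All 4 IL-7 libraries lie below the others for *Cdkn1a*, the CGRP libraries lie above the IL-7 and IL-33 libraries for *Myc* and below the IL-7, IL-33, and most NMU libraries for *Cdk6*.

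Among the genes of cycle entry, *Myc* was higher with CGRP. It was at 28.2, 11.4, 15.8, and 13.9 CPM with IL-7 and at 11.2, 21.3, 24.4, and 30.6 CPM with IL-33. It reached 43.9, 62.2, 59.3, and 49.5 CPM with CGRP, and 45.8, 52.9, 28.9, and 41.0 CPM with NMU. The CGRP libraries did not overlap those of IL-7 or IL-33, while 1 NMU library, *Pac1*-/- replicate 1, lay within the IL-33 range. The log2 fold change was 1.65 for CGRP against IL-7 (SE 0.388, adjusted *P* = 0.0416, edgeR), 1.35 for CGRP against IL-33 (SE 0.384, adjusted *P* = 0.09), and 1.28 for NMU against IL-7 (SE 0.384, adjusted *P* = 0.195). DESeq2 called all 3, at adjusted *P* = 0.000617, 0.00652, and 0.0288. CGRP and NMU differed by 0.37 (SE 0.378, adjusted *P* = 0.662, edgeR). In edgeR the call for CGRP against IL-7 was kept in 4 of the 16 fits that left out a library and was lost, at an adjusted *P* of 0.0507 to 0.0888, without *Pac1*-/- IL-33 replicate 1 or 2, any of the 4 NMU libraries, *Pac1*-/- CGRP replicate 1 or 2, or WT CGRP replicate 2. It was also lost without WT IL-7 replicate 2 (0.207), *Pac1*-/- IL-7 replicate 1 (0.119), or *Pac1*-/- IL-7 replicate 2 (0.143). Within WT the log2 fold change was 1.42 (SE 0.544) and within *Pac1*-/- 1.87 (SE 0.552), neither past the threshold.

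*Cdk4*, a kinase partner of the D-type cyclins, was lower with CGRP than with NMU. With CGRP it was at 28.1, 51.5, 36.3, and 21.6 CPM, and with NMU at 108, 148, 60.7, and 88.9 CPM, so that every NMU library was above every CGRP library. With IL-7 it was at 30.3, 38.9, 62.8, and 47.9 CPM and with IL-33 at 65.0, 43.8, 86.3, and 34.4 CPM, overlapping the CGRP libraries. CGRP against NMU gave a log2 fold change of -1.53 (SE 0.363, adjusted *P* = 0.0269, edgeR), -1.68 within WT (SE 0.515, adjusted *P* = 0.143), and -1.37 within *Pac1*-/- (SE 0.512, adjusted *P* = 0.259). The call was lost without WT CGRP replicate 1 (adjusted *P* = 0.0601), *Pac1*-/- CGRP replicate 2 (0.0593), WT NMU replicate 2 (0.0744), or *Pac1*-/- NMU replicate 2 (0.0703). Against IL-33 the log2 fold changes were -0.76 for CGRP (SE 0.357, adjusted *P* = 0.308) and 0.77 for NMU (SE 0.357, adjusted *P* = 0.766). *Cdk4* overlaps *Tspan31* on the opposite strand, which had 178 to 478 counts in the CGRP libraries and 396 to 815 in the NMU libraries. The use of strand in the counting is not given in the sources used here, so reads of the overlap cannot be assigned.

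*Cdk6*, the second partner kinase, was at 40.8, 25.2, 22.9, and 45.6 CPM with CGRP. It was at 54.3, 55.4, 68.8, and 55.2 CPM with IL-7, at 59.1, 82.5, 90.8, and 68.5 CPM with IL-33, and at 93.9, 84.7, 39.4, and 88.2 CPM with NMU. All CGRP libraries were below all IL-7 and all IL-33 libraries, and overlapped NMU only at *Pac1*-/- NMU replicate 1. The log2 fold change was -1.16 for CGRP against IL-33 (SE 0.335, adjusted *P* = 0.0921, edgeR), -1.17 against NMU (SE 0.335, adjusted *P* = 0.0626), and -0.79 against IL-7 (SE 0.333, adjusted *P* = 0.244). None was called by edgeR. DESeq2 called the first (adjusted *P* = 0.0205) and the second (0.0154). Against NMU it was also called by edgeR without *Pac1*-/- CGRP replicate 2 (adjusted *P* = 0.0347) or *Pac1*-/- NMU replicate 1 (0.0361).

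Because *Cdk4* and *Cdk6* both had their lowest mean with CGRP, their start regions are shown, as the 250 bases before the RefSeq start (GRCm38.p6). *Cdk4* starts on chromosome 10 (chr10:127063285-127063534, plus strand) and *Cdk6* on chromosome 5 (chr5:3343643-3343892, plus strand). Capitals mark the E-box CACGTG, the letters that MYC and MAX are known to bind, which is its own reverse complement.
Cdk4: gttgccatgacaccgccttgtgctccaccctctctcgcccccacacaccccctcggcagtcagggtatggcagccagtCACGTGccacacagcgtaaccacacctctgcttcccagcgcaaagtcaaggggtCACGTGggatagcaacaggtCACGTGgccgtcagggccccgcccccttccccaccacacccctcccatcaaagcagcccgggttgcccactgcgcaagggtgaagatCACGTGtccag
Cdk6: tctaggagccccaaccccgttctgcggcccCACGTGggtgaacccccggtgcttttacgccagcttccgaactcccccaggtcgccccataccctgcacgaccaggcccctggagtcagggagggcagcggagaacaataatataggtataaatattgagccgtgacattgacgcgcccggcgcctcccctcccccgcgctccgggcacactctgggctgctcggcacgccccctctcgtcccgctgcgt
The *Cdk4* stretch holds CACGTG at 4 places, beginning 172, 118, 98, and 11 bases before the start, and the *Cdk6* stretch at 1, beginning 220 bases before it. In windows of 300 bases, from 250 before to 50 after the start, CACGTG was found in 8.09% of 27025 genes and in 3 of the 40 members with an entry, the third being *Tyms*. No entry was used for *Ccne2*, *Gins2*, *Mcm4*, *Tpx2*, *Kif20a*, *Myc*, *Ccna2*, *Ccnd2*, and *Aurkb*. A match is a description of letters, and binding was not measured here.

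Neither D-type cyclin gene was called in any comparison. *Ccnd2* was at 341, 262, 311, and 327 CPM with IL-7, at 433, 298, 490, and 409 CPM with IL-33, at 268, 383, 533, and 406 CPM with CGRP, and at 352, 510, 386, and 472 CPM with NMU. All treatments overlapped. Its log2 fold change was 0.39 for IL-33 against IL-7 (SE 0.205, adjusted *P* = 0.569, edgeR), -0.05 for CGRP against IL-33 (SE 0.204), and 0.47 for NMU against IL-7 (SE 0.205, adjusted *P* = 0.396). *Ccnd3*, encoding cyclin D3, was lower and more scattered, at 1.53, 13.9, 10.4, and 3.09 CPM with IL-7, at 15.2, 1.5, 9.89, and 3.42 CPM with IL-33, at 5.51, 23.3, 20.0, and 20.7 CPM with CGRP, and at 3.69, 12.2, 17.1, and 5.67 CPM with NMU. Its log2 fold change for CGRP against IL-33 was 1.19 (SE 0.947, adjusted *P* = 0.577), within the spread.

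The genes of the G1 to S transition were unevenly detected, with *Cdk2* above 3 counts in 15 libraries, *Ccne2* in 10, *Ccne1* in 2, and *E2f1* in 1. *E2f1*, the transcription factor released at that transition, had 0 counts in 11 libraries and at most 6, in *Pac1*-/- IL-7 replicate 2. The other counts were 3 in WT IL-7 replicate 2, 2 in WT IL-33 replicate 1, and 1 each in *Pac1*-/- IL-33 replicate 1 and *Pac1*-/- CGRP replicate 1. *Ccne1*, a cyclin E gene, had 67 counts in *Pac1*-/- IL-33 replicate 1 and 51 in WT NMU replicate 2. *Ccne2*, the second cyclin E gene, was at 8.72, 8.34, 4.36, and 0 CPM with IL-7 and at 0, 0.876, 0, and 0 CPM with CGRP. These ranges overlapped, and the difference was not called by edgeR (adjusted *P* = 0.211). *Cdk2*, the cyclin E kinase, ranged from 0.0889 CPM (1 count) to 32.0 CPM and was called in no comparison.

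In S phase, the replication genes showed no called change with any treatment. *Pcna* held most of the summed level. It was at 289, 288, 252, and 169 CPM with IL-7, at 293, 262, 252, and 145 CPM with IL-33, at 249, 317, 241, and 201 CPM with CGRP, and at 299, 272, 321, and 304 CPM with NMU. All treatments overlapped, and the log2 fold changes over the 6 comparisons ran from -0.25 for CGRP against NMU (SE 0.206, adjusted *P* = 0.542) to 0.35 for NMU against IL-33 (SE 0.206, adjusted *P* = 0.823, edgeR). *Pcna-ps2*, a pseudogene with 99.2% identity over 781 bases, had 40 to 164 counts per library, against up to 4433 for *Pcna*, and the split of reads between them is uncertain.

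*Mcm5*, a subunit of the replicative helicase, was at 9.59, 6.51, 9.15, and 7.36 CPM with IL-7 and at 6.99, 7.499, 8.53, and 23.3 CPM with IL-33. It was at 3.83, 6.68, 10.95, and 15.8 CPM with CGRP and at 1.999, 4.23, 4.68, and 12.2 CPM with NMU. The groups overlapped, and its log2 fold change was 0.40 for IL-33 against IL-7 (SE 0.657) and -0.36 for CGRP against IL-33 (SE 0.658). *Cdc6*, which loads the helicase onto origins, had 0 counts in 8 libraries and at most 88. Its counts were 28, 88, 0, and 0 with IL-7, 0, 65, 0, and 0 with IL-33, 1, 28, 55, and 39 with CGRP, and 0, 0, 15, and 0 with NMU. No treatment was without a library at 0 or 1 count. *Mcm4*, another helicase subunit, was higher in all IL-33 libraries (24.2 to 41.4 CPM) than in all IL-7 libraries (1.57 to 17.9 CPM), with a log2 fold change of 1.64 (SE 0.962, adjusted *P* = 0.613, edgeR). With CGRP it was at 30.5, 18.5, 6.49, and 0 CPM. Its lower level with CGRP than with IL-33 was called without *Pac1*-/- CGRP replicate 1 (log2 fold change -6.03, adjusted *P* = 0.00205), a fit in which the single *Pac1*-/- CGRP library left is the one at 0, and not with all libraries (-1.92, SE 0.974, adjusted *P* = 0.341).

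*Tyms*, encoding thymidylate synthase, was at 43.8, 32.5, 42.6, and 18.7 CPM with NMU and at 0, 34.5, 8.62, and 7.75 CPM with CGRP. Only without WT CGRP replicate 2 was it called lower with CGRP than with NMU (log2 fold change -6.83, adjusted *P* = 0.000345, against -1.52 and adjusted *P* = 0.46 with all libraries). A stretch of *Tyms* shares 97.7% identity over 355 bases with *Reep3*, which had 445 to 2510 counts per library. Another match has 95.5% identity over 357 bases with *Map3k2*, which had 267 to 2108 counts. *Tyms* itself had at most 446 counts, and the split of reads among these genes is uncertain. *Rrm2*, the regulated subunit of ribonucleotide reductase, was at 0.0889, 0, 1.52, and 0 CPM with CGRP, against 10.2, 1.40, 5.23, and 4.89 CPM with IL-33. The 2 groups overlapped at 1.40 and 1.52 CPM, and the log2 fold change of -4.67 (SE 1.88) was not called by edgeR (adjusted *P* = 0.234). The highest levels of the remaining 9 genes (*Cdt1*, *Mcm2*, *Mcm3*, *Mcm6*, *Mcm7*, *Gins2*, *Rrm1*, *Uhrf1*, and *Hells*) lay between 6.35 CPM for *Uhrf1* and 61.6 CPM for *Rrm1*, and none was called between treatments. Without *Pcna*, the summed S phase level was 103 to 134 CPM with IL-7 and 138 to 182 CPM with IL-33. It was 123 to 148 CPM with CGRP and 135 to 241 CPM with NMU. Every IL-33 and every NMU library was thus above every IL-7 library, by a narrow margin. With *Pcna* the IL-7 and IL-33 ranges overlapped (302 to 417 CPM and 305 to 454 CPM), while the NMU libraries (440 to 513 CPM) stayed above those of IL-7.

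The mitotic genes were sparse with every treatment. Of the 23 G2/M genes, 6 to 12 exceeded 3 counts per library with IL-7, 9 to 13 with IL-33, 1 to 6 with CGRP, and 6 to 10 with NMU. The CGRP libraries were thus below the IL-33 libraries without overlap and met the IL-7 and NMU libraries at 6 genes. Over all tested genes, 68.9% to 76.9% exceeded 3 counts with CGRP, against 73.8% to 80.9% with IL-33, so detection as a whole was also lower. Mitochondrial genes took 8.31% to 12.6% of counts with CGRP, 3.94% to 7.96% with IL-33, 3.32% to 5.54% with NMU, and 8.6% to 10.2% with IL-7. The CGRP libraries and the IL-7 libraries were each above all IL-33 and NMU libraries in this share. Its part in the differences of CGRP or IL-7 from IL-33 and NMU was not tested. The WT CGRP libraries, at 1 and 3 genes, were below the *Pac1*-/- CGRP libraries, at 6 and 5, which are the libraries with the B cell transcripts, whose part in this difference was not tested. For the 15 S phase genes the numbers were 11 to 13 with CGRP and 13 to 14 with IL-33, meeting at 13. The summed G2/M level was 19.9 to 74.9 CPM with IL-7 and 40.0 to 136 CPM with IL-33. It was 27.7 to 73.8 CPM with CGRP and 20.6 to 36.1 CPM with NMU. Every IL-33 library was thus above every NMU library in this sum, while the other pairs of treatments overlapped. *Cenpa* supplied 27.7 of the 27.7 CPM in WT CGRP replicate 1.

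**Figure D3:**
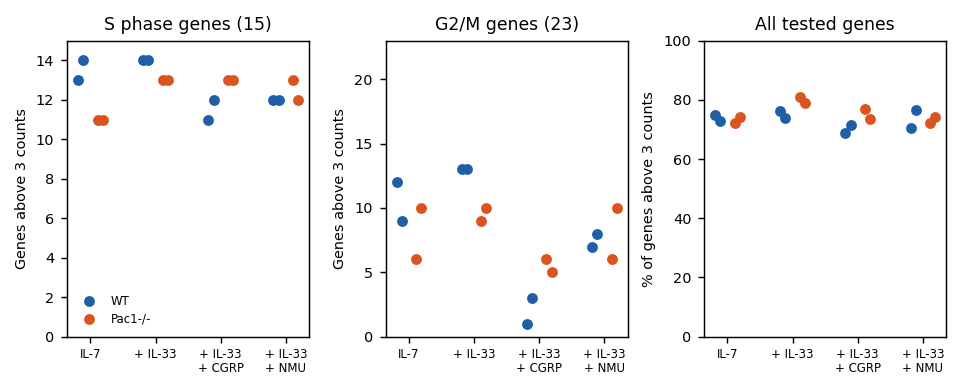
Number of the 15 S phase genes (left) and the 23 G2/M genes (middle) above 3 counts in each library, and the percentage of all 14979 tested genes above 3 counts (right), by treatment, with WT in blue and *Pac1*-/- in orange. The 4 CGRP libraries hold 1 to 6 G2/M genes against 9 to 13 in the 4 IL-33 libraries.

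*Cdk1*, the kinase that drives mitosis, was above 3 counts in 4 libraries, with 85 and 95 counts in the WT IL-33 libraries, 5 in *Pac1*-/- IL-33 replicate 2, and 72 in *Pac1*-/- CGRP replicate 2. It had 3 counts in *Pac1*-/- NMU replicate 2 and 0 in the other 11 libraries. *Ccnb1*, encoding its partner cyclin B1, had 107, 25, 7, and 7 counts with IL-7, 332, 0, 4, and 0 with IL-33, 0 in all 4 CGRP libraries, and 0, 0, 1, and 0 with NMU. One IL-33 library held nearly all of its IL-33 counts. *Ccnb2*, the cyclin B2 gene, had 0 counts in all 8 libraries with a neuropeptide, against 171, 0, 0, and 26 with IL-7 and 115, 32, 0, and 32 with IL-33. Neither cyclin was called by edgeR for CGRP against IL-33 (adjusted *P* = 0.197 for *Ccnb1* and 0.234 for *Ccnb2*).

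Kinases and checkpoint genes were at the floor in most libraries. *Plk1*, a kinase of mitotic entry, had 35 counts in *Pac1*-/- IL-7 replicate 2, 6 in *Pac1*-/- IL-33 replicate 2, 3 in WT NMU replicate 2, 2 in *Pac1*-/- NMU replicate 1, 1 in *Pac1*-/- IL-33 replicate 1, and 0 in 11 libraries. *Cdc20*, the activator of the anaphase-promoting complex, had 19 and 28 counts in the *Pac1*-/- IL-33 libraries, 29 in *Pac1*-/- CGRP replicate 1, 6 in *Pac1*-/- NMU replicate 2, 1 in WT IL-7 replicate 2, 2 in *Pac1*-/- IL-7 replicate 2, and 0 in 10. *Aurkb* had 2 counts in WT IL-7 replicate 1 and 0 in the other 15 libraries, which at 3 counts allows at most 0.171 to 0.461 CPM in each. *Bub1b*, a checkpoint kinase gene, had 75 and 116 counts in WT IL-7 replicate 2 and *Pac1*-/- IL-7 replicate 1 and 0 in the other 14. Counts of a G2/M gene thus differed widely between libraries of 1 group.

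*Mki67*, the common proliferation marker, was lower with IL-33 than with IL-7 in every library. It had 32, 28, 40, and 31 counts with IL-7 (2.13 to 3.49 CPM) and 0, 13, 1, and 1 with IL-33 (0 to 1.30 CPM), without overlap. It had 0, 0, 140, and 0 counts with CGRP and 17, 14, 0, and 25 with NMU, so that 1 *Pac1*-/- CGRP library held the highest level of all, 14.2 CPM. The log2 fold change for IL-33 against IL-7 was -3.54 (SE 1.96, adjusted *P* = 0.595, edgeR). The IL-7 libraries also had the higher sum of NK cell or ILC1 markers, mostly *Gzma*, whose part was not tested. *Top2a*, the topoisomerase that untangles replicated chromosomes, had 207, 100, 0, and 185 counts with IL-7 and 63, 101, 7, and 119 with IL-33. It had 0, 2, 15, and 11 with CGRP and 22, 23, 32, and 61 with NMU. The CGRP libraries lay below all NMU libraries (0 to 1.52 CPM against 2.56 to 5.49 CPM) and overlapped IL-33 and IL-7 at 1 library each. Its log2 fold change was -3.88 for CGRP against IL-33 (SE 1.57, adjusted *P* = 0.236), -4.47 against IL-7 (SE 1.61, adjusted *P* = 0.178), and -3.10 against NMU (SE 1.52, adjusted *P* = 0.274) in edgeR. DESeq2 called the first (adjusted *P* = 0.0405) and the second (0.0149).

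*Nusap1*, a spindle-associated protein gene, had 0 counts in all 4 CGRP libraries, against 179, 10, 1, and 14 with IL-33 and 21, 18, 2, and 14 with IL-7, with an adjusted *P* of 0.0947 for CGRP against IL-33 in edgeR and 0.0217 in DESeq2. *Aurka*, the spindle pole kinase gene, had 0 counts in all CGRP libraries as well, against 0, 32, 89, and 27 with IL-33 and 2, 21, 14, and 7 with NMU. *Cenpa* had counts with CGRP in all libraries, at 27.7, 2.74, 49.97, and 45.2 CPM, against 29.35, 16.3, 31.1, and 14.5 CPM with IL-33 and 8.39, 16.3, 4.44, and 14.8 CPM with IL-7. It was called in no comparison (CGRP against IL-7, log2 fold change 1.3, SE 0.661, adjusted *P* = 0.331). The remaining G2/M genes (*Ccna2*, *Birc5*, *Bub1*, *Ube2c*, *Cenpe*, *Cenpf*, *Spc25*, *Kif11*, *Kif20a*, *Tpx2*, and *Cip2a*) had between 1 library (*Kif11*) and 10 libraries (*Birc5*) above 3 counts, with a highest count of 7 (*Bub1*) to 260 (*Ube2c*), and none was called between treatments.

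The mitotic genes share letters in their start regions that the list did not use. *Top2a* is shown because it holds both elements several times and because it stood lower with CGRP than with NMU in all libraries. The 250 bases before its RefSeq start are chr11:99024190-99024439 on the minus strand of GRCm38.p6. Capitals mark the CCAAT box and the cell cycle homology region (CHR), each on either strand. The CHR was searched as TTTGAA, and in a second form known from mitotic genes as TTCGAA, with the reverse complements of both.
Top2a: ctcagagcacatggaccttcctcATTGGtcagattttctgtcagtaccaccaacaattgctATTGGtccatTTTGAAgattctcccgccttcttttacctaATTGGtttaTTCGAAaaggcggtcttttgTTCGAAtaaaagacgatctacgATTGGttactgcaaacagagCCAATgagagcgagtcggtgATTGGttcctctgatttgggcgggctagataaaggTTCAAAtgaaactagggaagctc
Across the 300-base windows, searched on both strands, CHR letters were in 14 of the 19 G2/M genes with an entry, 2 of 13 S phase genes, and none of the 6 entry and G1 genes, against 21.7% of all 27025 genes. CCAAT was in 17 of 19 G2/M and 9 of 13 S phase genes, against 41.1% of all. An E2F motif (TTTCGCGC, TTTGGCGC, TTTCCCGC, or TTTGCCGC) was in 8 of 13 S phase genes, 1 of 19 G2/M genes, and 1 of 6 entry and G1 genes, against 2.6% of all. The cAMP response element TGACGTCA was in 2 members (*Mcm5* and *Cenpe*), against 2.03% of all genes, and the AP-1 letters TGACTCA or TGAGTCA in none, against 5.95%. No motif contains another, though matches may overlap, and the absence of letters from this window says nothing about a factor.

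**Figure D4:**
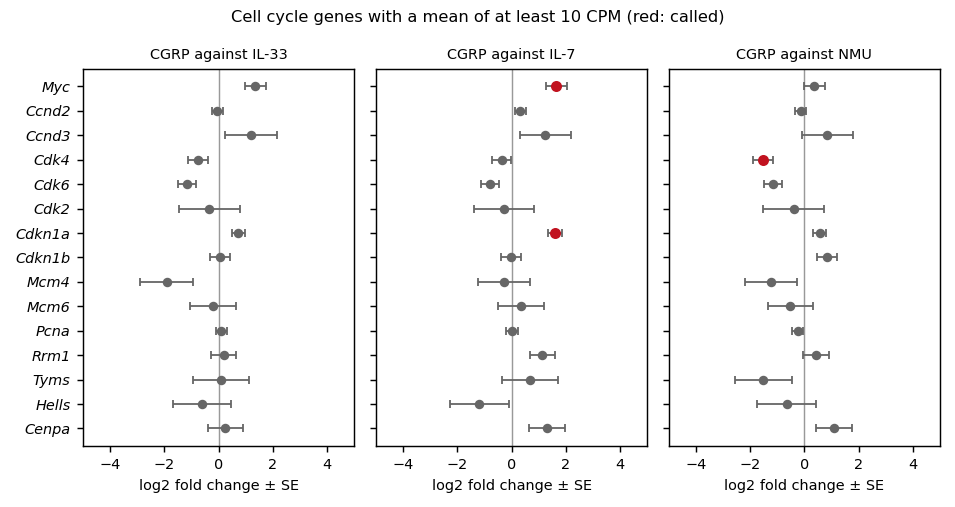
Fitted log2 fold change with its SE (edgeR, all 16 libraries) for the 15 cell cycle genes whose mean was 10 CPM or higher, for CGRP against IL-33, against IL-7, and against NMU. Red points are called, *Cdkn1a* and *Myc* for CGRP against IL-7 and *Cdk4* for CGRP against NMU, and the error bars of the helicase and nucleotide genes are wider than those of *Ccnd2* or *Pcna*.

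A few members had no overlap between the 4 libraries of one treatment and the 4 of another. For CGRP against IL-33, 1 of the 43 tested members (*Myc*) was higher without overlap and 2 (*Cdk6* and *Nusap1*) were lower, where 5.82% and 3.89% of all tested genes were. For IL-33 against IL-7, 4 (*Cdkn1a*, *Mcm4*, *Uhrf1*, and *Tpx2*) were higher and 1 (*Mki67*) was lower, against 2.65% and 2.59% of all genes. For NMU against IL-33 there were 0 higher and 0 lower, against 2.27% and 2.08%. For CGRP against NMU, 0 were higher and 3 (*Cdk4*, *Aurka*, and *Top2a*) lower, against 6.86% and 6.46%.

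The deletion of *Pac1* changed no member at the threshold. Over all 4 treatments, 0 of the 43 tested members were called by edgeR (0.113% of all genes called), 3 had an unadjusted *P* under 0.05, and DESeq2 called 0. Within IL-7 (0.00668% of all genes called), IL-33 (0.00668%), CGRP (0.107%), and NMU (0.02%), 0 members were called, with 2, 4, 2, and 1 at an unadjusted *P* under 0.05 and 0 in DESeq2. For the interactions of genotype with IL-33 (0% of all genes called), with CGRP (0%), and with NMU (0%), 0 members were called, with 1, 6, and 6 at an unadjusted *P* under 0.05 and 0 in DESeq2. Of all tested genes, 6.77% reached an unadjusted *P* under 0.05 (edgeR) over all treatments. Within IL-7, IL-33, CGRP, and NMU the shares were 4.45%, 3.69%, 7.8%, and 3.29%. For the 3 interactions they were 4.85%, 6.04%, and 5.43%. The member counts were not tested against these shares.

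The more abundant members were close between *Pac1*-/- and WT. Over all treatments the log2 fold change was 0.05 for *Cdkn1a* (SE 0.170), -0.03 for *Myc* (SE 0.267), -0.02 for *Cdk6* (SE 0.234), and -0.10 for *Cdk4* (SE 0.251). It was 0.22 for *Ccnd2* (SE 0.145) and -0.29 for *Pcna* (SE 0.146). With CGRP it was 0.51 for *Cdkn1a* (SE 0.341), whose genotypes overlapped, and 0.53 for *Ccnd2* (SE 0.29, adjusted *P* = 0.645, edgeR), whose *Pac1*-/- libraries (533 and 406 CPM) were both above the WT libraries (268 and 383 CPM). In group means, 29 of the 45 members above the floor in at least 1 genotype were lower in *Pac1*-/- (median log2 ratio -0.25), while 47.3% of all tested genes were lower. Within CGRP, 11 of 33 were lower and 22 higher (median 0.51), while 45.6% of all tested genes were lower. The *Pac1*-/- CGRP libraries also held more B cell transcripts (270 to 281 CPM against 35.4 to 78.0 CPM in WT CGRP) and had more tested genes above 3 counts (73.5% and 76.9% against 68.9% and 71.35%), and the part of either was not tested.

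Among the 15 members with a mean of 10 CPM or more, *Rrm1*, encoding the large subunit of ribonucleotide reductase, differed most between genotypes over all treatments. In WT it was at 20.8 and 47.9 CPM with IL-7, 33.6 and 40.9 CPM with IL-33, 17.9 and 57.0 CPM with CGRP, and 44.6 and 61.6 CPM with NMU. In *Pac1*-/- it was at 10.5 and 6.49 CPM, 34.1 and 25.2 CPM, 42.1 and 33.4 CPM, and 8.31 and 21.04 CPM in the same order. The genotypes were apart with IL-7 and NMU and overlapped with IL-33 and CGRP. Over all treatments the log2 fold change was -1.04 (SE 0.334, unadjusted *P* = 0.00799, adjusted *P* = 0.564, edgeR), which does not pass the correction. *Cip2a*, whose protein inhibits the phosphatase PP2A, had 123, 2, 133, 123, 0, 126, 4, and 0 counts in the WT libraries (IL-7, IL-33, CGRP, and NMU, replicates 1 and 2 of each) and 0, 22, 0, 0, 0, 0, 4, and 18 in the *Pac1*-/- libraries. The ranges overlapped, and its difference (adjusted *P* = 0.573) was called only when no filter on low counts was used (adjusted *P* = 0.047).

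**Figure D5:**
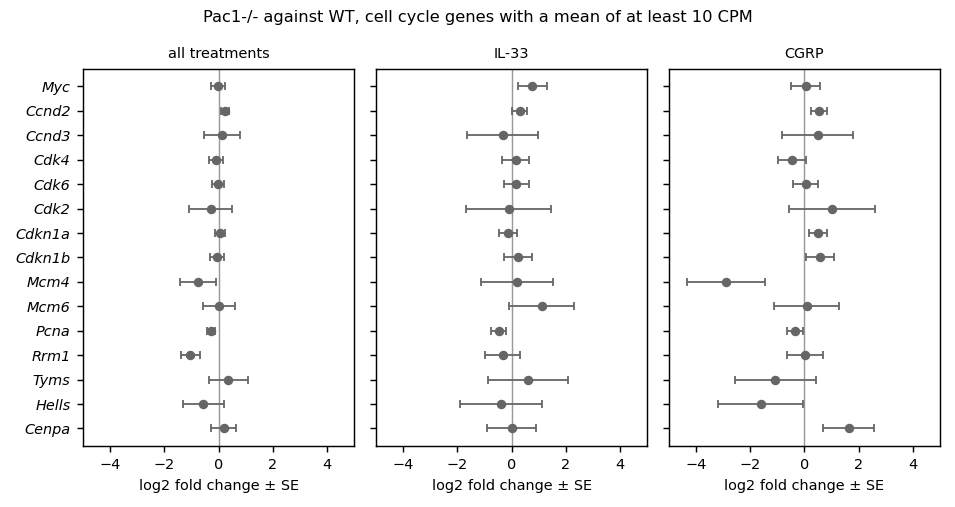
Fitted log2 fold change of *Pac1*-/- against WT with its SE (edgeR, all 16 libraries) for the 15 cell cycle genes whose mean was 10 CPM or higher, over all treatments, with IL-33, and with CGRP. None is called, and over all treatments *Rrm1* lies farthest from 0, at -1.04.

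Genes outside the list but of the same pathways were counted in the same fit. Of 26 tested other S phase genes, 1 rose and 0 fell with CGRP against IL-33, 1 rose and 1 fell against IL-7, and 1 rose and 1 fell against NMU. The gene that rose each time was *Clspn*, encoding the replication checkpoint adaptor claspin, at 19.8, 21.3, 20.5, and 21.8 CPM in the CGRP libraries and at most 0.367 CPM in the other 12. Its adjusted *P* was 0.00436 against IL-33, 0.0112 against IL-7, and 0.00199 against NMU (edgeR). *Mrpl36*, a mitochondrial ribosome gene of that published list, fell against IL-7 (log2 fold change -1.3, SE 0.299), and *Cdca7*, a MYC and E2F target, against NMU (-3.34, SE 0.7). Of 31 tested other G2/M genes, none was called for CGRP against IL-33 or IL-7, and 2 rose against NMU. These were *Kif23*, a central spindle motor gene (98.99, 87.9, 83.7, and 86.1 CPM with CGRP, against 4.61 to 25.3 CPM with NMU), and *Hmgb2*, a chromatin protein gene (log2 fold change 1.19, SE 0.252). Of 28 tested other cyclin, CDK, E2F, and pocket protein genes, only *Cdk7*, a CDK-activating kinase gene, was called, lower with CGRP than with NMU (-1.67, SE 0.361).

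Of 20 MYC target and ribosome biogenesis genes, 6 rose with NMU against IL-7 (median log2 fold change of the list 1), and 9 fell and 1 rose with CGRP against NMU (median -1.06), beside background shares of 0.734% and 5.47% of all genes. Examples are *Nop16*, a nucleolar protein gene (153 to 232 CPM with NMU, 62.2 to 78.8 CPM with IL-7, and 42.7 to 60.2 CPM with CGRP), and *Dkc1*, encoding the pseudouridine synthase dyskerin (315 to 430 CPM, 120 to 165 CPM, and 96.1 to 159 CPM). For CGRP against IL-33, *Nop16* alone was called of that list, at a log2 fold change of -1.11 (SE 0.213, adjusted *P* = 0.0137, edgeR). Of 14 tested p53 target genes, *Btg2*, an antiproliferative gene, rose with CGRP against IL-33 (2.32, SE 0.291, adjusted *P* = 0.000817), with 173 to 358 CPM against 40.4 to 59.7 CPM. *Ccng1*, encoding cyclin G1, fell (-1, SE 0.193, adjusted *P* = 0.0137), so that p53 targets were called in both directions. Against IL-7, CGRP again raised *Btg2* (2.64, SE 0.295) and lowered *Ccng1* (-1.06, SE 0.193). With CGRP against NMU, *Btg2* was higher (2.48, SE 0.294) and *Mdm2* lower (-1.62, SE 0.340). *Mdm2* also rose with NMU against IL-7 (1.97, SE 0.344). Of 12 quiescence-associated genes, *Klf4* rose with CGRP against IL-33 (1.71, SE 0.351, adjusted *P* = 0.0207), at 103 to 208 CPM against 28.9 to 54.6 CPM, and *Klf4* and *Pdcd4* were higher with CGRP than with NMU. None of these 6 lists had a gene called between genotypes or in an interaction.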

How the data were processed

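mRNA-Seq was measured in 16 libraries of lung ILC2s. The authors aligned reads to mm10 with HISAT2 and deposited raw counts per gene and library, which were not normalized. The counting tool, the annotation release, and the use of strand are not given in the sources used here, so reads of antisense neighbors and near-identical copies cannot be told apart. By BLAST (2.17.0) between transcripts, 23 members share at least 95% identity over at least 100 bases with another gene, and 20 overlap another gene.

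Groups came from the sample labels. Genes were filtered by filterByExpr, scaled by TMM, and fitted with edgeR's quasi-likelihood test (edgeR 4.0.16, R 4.3.3) over all 8 groups, whose libraries share 1 estimate of the spread. Every adjusted *P* of the main fit is Benjamini-Hochberg over 14979 genes. Adjusted *P* values are from edgeR unless DESeq2 (1.42.0), which made its own adjustment, is named. Fits without a library, with another filter, or of a comparison's own libraries were filtered anew. Their adjusted *P* values are over the genes kept in that fit, and the part of this in calls lost or gained was not tested. A call needs an adjusted *P* under 0.05 and a fold above 1.5. The median biological coefficient of variation was 1.08, so precision was limited mainly by the spread between libraries, whose log2 CPM correlated at 0.847 to 0.929 within groups. The code was tested on simulated data.

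The members, the other gene lists, and the tests were chosen with earlier results of these data known. By rule, values per library are given for 16 members and for those called. Other members given per library, with the shown promoters, were chosen after their values were seen. From the other lists, up to 3 called genes per comparison with the smallest *P* are named. Alternatives were DESeq2, RLE scaling, other filters, a replicate block, each comparison's own libraries, and leaving out each library. Contrasts within 1 genotype and S phase sums without *Pcna* were added after seeing the data. Promoters are RefSeq windows.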

Additional observations from a re-analysis of the deposited data

Results flagged for a closer look

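For 4 members every library of WT moved one way with a neuropeptide against IL-33 and every library of *Pac1*-/- the other way, a comparison that does not itself test the difference. This was 1 of 43 tested members for CGRP, where 2.95% of all tested genes did the same, and 3 of 43 for NMU, where 4.92% did. With 2 libraries a side these counts do not stand apart from the background. The size given is the *Pac1*-/- response minus the WT response in log2(CPM + 1), and the interaction of the edgeR fit stands beside it. *Cdt1*, a replication licensing gene, went from 5.11 CPM with IL-33 to 0.889 CPM with CGRP in WT and from 4.88 to 8.63 CPM in *Pac1*-/-, a difference of 2.41 (interaction 3.32, SE 2.41, adjusted *P* = 0.891). *Mcm3*, a helicase subunit gene, went from 8.68 CPM with IL-33 to 15.6 CPM with NMU in WT and from 15.6 to 7.78 CPM in *Pac1*-/-, a difference of -1.69 (interaction -1.84, SE 1.75, adjusted *P* = 1). *Rrm1* went from 37.2 to 53.1 CPM with NMU in WT and from 29.7 to 14.7 CPM in *Pac1*-/-, a difference of -1.47 (interaction -1.53, SE 0.939, adjusted *P* = 0.944). *Cip2a* went from 11.1 to 0.307 CPM with NMU in WT and from 0 to 1 CPM in *Pac1*-/-, a difference of 4.21 (unadjusted *P* of the interaction 0.0283, adjusted *P* = 0.912). None passed the correction.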

How the results depend on the processing

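Numbers below are members called of those tested, unless all genes are named, and the number tested depends on the filter of the setting. DESeq2 called 1 for IL-33 against IL-7, 5 for CGRP against IL-33, 3 for CGRP against IL-7, 3 for NMU against IL-7, and 2 for CGRP against NMU. Of all genes it called 299, 1290, 1233, 648, and 1868 in the same order. The main fit called 5, 413, 396, 110, and 820. With at least 10 counts in every library, 2 were called for CGRP against IL-33, 1 for NMU against IL-7, and 2 for CGRP against NMU. Calls over all genes were 608, 254, and 1105 there, also above the main fit. Without a filter on low counts, 1 was called for CGRP against IL-7, 1 for NMU against IL-7, and 1 (*Cip2a*) for *Pac1*-/- against WT over all treatments. Over all genes that setting called 862, 406, and 117, against 396, 110, and 17 in the main fit. With the replicate block, 1 was called for CGRP against IL-7 in place of 2, *Myc* being lost, and the same number when only the libraries of the comparison were fitted. The labels share replicate numbers, but deviations of same-numbered libraries correlated at -0.101 to 0.0729 over 28 pairs of groups, so the libraries were not treated as paired. Within WT, 0 were called for CGRP against IL-7 and 0 for CGRP against NMU, and within *Pac1*-/- 1 and 0.

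In the 16 fits that each dropped 1 library, 0 to 1 were called for CGRP against IL-33, 1 to 2 for CGRP against IL-7, 0 to 1 for NMU against IL-7, and 0 to 3 for CGRP against NMU. The range was 0 to 1 for *Pac1*-/- against WT over all treatments, for the same with CGRP, and for the interaction with CGRP. The calls of *Mcm4* rest on leaving out *Pac1*-/- CGRP replicate 1, and those of *Tyms* on leaving out WT CGRP replicate 2. No fold change of a called gene changed direction under these alternatives. The cause of the differences between settings was not tested. RLE scaling changed no number of members called. Low members could differ between libraries of 1 group against the order of their totals, as *Bub1b* did, with 0 counts in WT IL-7 replicate 1, the library with the highest total, and 75 in WT IL-7 replicate 2.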
